A study of Mus musculus with 2207 samples.

Results

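The 9 complement genes described here, C1qa, C1qb, C1qc, C3, C4b, C7, C3ar1, C5ar1 and Cd55, were taken by symbol from the 52636 genes measured in single nuclei of mouse cortex. They comprise components, receptors and a regulator of the complement cascade, and leave out the C1r and C1s proteases. The nuclei came from C57BL/6 mice aged 14 weeks, all of which had received tamoxifen (2 doses of 100 mg/kg) when aged 3 weeks, with 3 mice for each genotype. The 2207 nuclei fell into 6 pools, and each nucleus carried a label of neuron (1664 nuclei), oligodendrocyte (397 nuclei, 46 to 73 in a pool) or microglia (16 to 36 nuclei in a pool). On 96-well plates, a wild-type pool (Ehmt1+/+, WT) was set beside a pool heterozygous for an Ehmt1 deletion (Ehmt1delta/+, here het), a mouse model of Kleefstra syndrome in which 1 allele of a histone H3 lysine 9 methyltransferase is lost. On 384-well plates all 4 pools carried, by their genotype labels, Ehmt1 iTg, a transgene that makes the Ehmt1 protein after Cre recombination. The WT and het pools of that format lacked CamKII-CreER, the tamoxifen-dependent Cre of forebrain neurons, whereas the iTg and het;iTg pools carried it. No label tied a nucleus to a mouse, so a pool counted as 1 sample, and p-values measured only the spread between pools. Values are RPKM, which scales the reads of a gene by its length and by all mapped reads of the nucleus, and are given throughout in the order WT and het of the 96-well plates, then WT, het, iTg and het;iTg of the 384-well plates.

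Complement is a cascade of plasma and tissue proteins that tag surfaces for removal. The recognition molecule C1q is assembled from the products of C1qa, C1qb and C1qc, and it starts the classical pathway through C4 and C3. The C3a and C5a fragments signal through the receptors encoded by C3ar1 and C5ar1. The product of C7 joins the membrane attack complex at the end of the cascade, and that of Cd55 speeds the decay of the C3 convertases and so protects the cell that bears it. In the brain, C1q made by microglia is known for marking synapses that microglia then remove through complement receptor 3, which is encoded by Itgam and Itgb2.

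The summed level of 5 neuronal markers was 258.2 to 334.8 RPKM in neurons, that of 6 microglial markers 1976 to 3479 RPKM in microglia and that of 5 oligodendrocyte markers 2553 to 4009 RPKM in oligodendrocytes. Markers of oligodendrocyte precursors (Pdgfra and Cspg4) summed to 0.125, 4.58, 0.168, 0.115, 0.157 and 0.0767 RPKM in neurons and thus stood apart in the 96-well het pool, where 2 nuclei gave 97.96% of the sum. Neither of them held a read of C7, C3ar1 or C3. Median depth differed between formats for glia. It was 493359 to 510639 reads per nucleus for microglia on 96-well plates against 39940 to 51469 on 384-well plates, and 441702 to 478606 against 49635 to 54877 for oligodendrocytes. In neurons it was 323273 to 397880 reads over both formats. The targeted gene did not separate the pools in the direction of its labels, since mean Ehmt1 in neurons was 18.7, 31.2, 19.5, 31.7, 20.7 and 33.9 RPKM, higher in each pool labelled het. A value over the whole gene could not isolate the deleted part, so the labels were not checked by it.

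The 9 genes divided among the 3 cell types in different ways. C1qa, C1qb, C1qc, C3ar1 and C5ar1 were highest in microglia in 6 of 6 pools. C7 and Cd55 were highest in neurons in 6 of 6 pools, C4b was highest in oligodendrocytes in 5 of 6, and C3 was at most 1.71 RPKM in any type and pool. These levels are a description, because the labels came from clusters of the same nuclei.

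**Figure D1:**
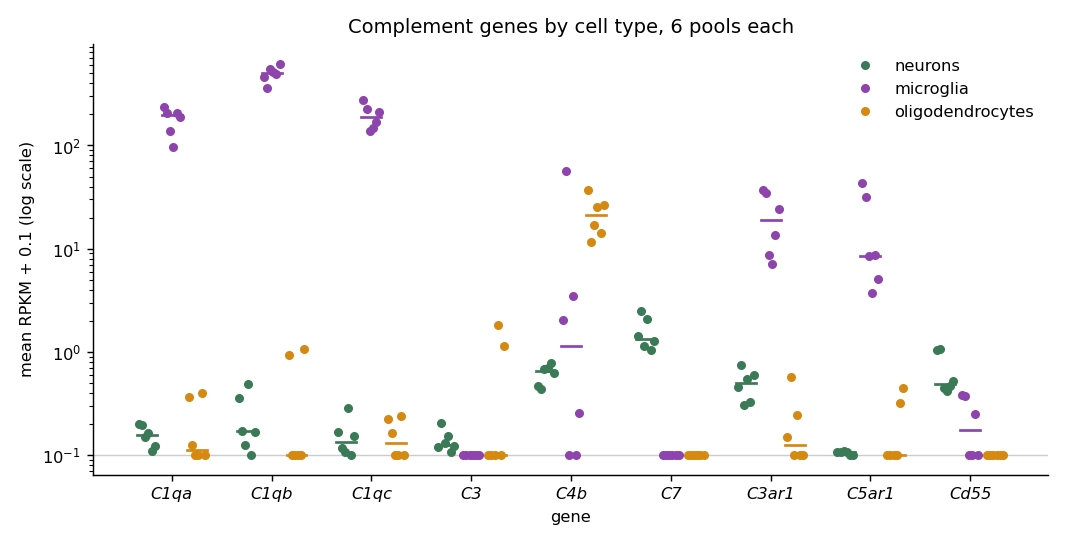
Mean RPKM plus 0.1, on a log axis, of each of the 9 genes in neurons, microglia and oligodendrocytes. Each point is 1 of 6 pools and each short line the median over pools. The grey line marks a mean of 0. The C1q genes lay above 97 RPKM in microglia and below 1 RPKM in the other types, and C7 was above 0 only in neurons.

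The C1q genes were the most abundant of the 9 in microglia. The 3 genes stand side by side on the minus strand of chromosome 4 of mm10, with C1qb at chr4:136880129-136886187 (ENSMUSG00000036905.8), C1qc at chr4:136889804-136893065 (ENSMUSG00000036896.5) and C1qa at chr4:136895917-136898803 (ENSMUSG00000036887.5). C1qb had the highest level in each pool, with means of 455.6, 359.04, 545.6, 518.5, 494.25 and 621.0 RPKM in microglia. C1qa measured 236.5, 204.1, 138.7, 97.3, 207.6 and 187.4 RPKM, and C1qc measured 273.1, 226.9, 138.3, 146.5, 169.2 and 211.6 RPKM. Of all microglia, 94.5% held reads of all 3 genes and 99.3% held at least 1 of them, and a single nucleus of the 96-well WT pool held none. C1qb exceeded C1qa by 1.76 to 1.93 times on 96-well plates and by 2.38 to 5.33 times on 384-well plates, so the relation between chains moved with the format while the sum of the 3 genes, 762 to 1020 RPKM, overlapped between formats. A single read of C1qa corresponded to about 22.8 RPKM in 384-well microglia, against 1.91 RPKM in 96-well microglia.

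The sequence before the C1q genes is shown because these genes shared their cell type. RefSeq windows of 300 bases around the start were at hand for 7 of the 9 genes (all but C1qa and C4b) on GRCm38.p6. The hexamer GAGGAA, the core of the box bound by PU.1, a transcription factor of microglia and other myeloid cells, was searched on both strands (GAGGAA and TTCCTC). It occurred in the windows of C1qb and C1qc and in none of those of Cd55, C3ar1, C5ar1, C7 and C3. These 2 of 7 windows stand beside 9289 of all 32851 windows, or 28.3%, and the match is only a description of the letters. The stretch before C1qb was chr4:136886201-136886450 and that before C1qc was chr4:136893066-136893164, both on the minus strand and printed 5′ to 3′ in lower case with the hexamer in capitals. Counting back from -1, the base before the RefSeq start, the hexamer begins at -30 for C1qb on the gene's strand and at -193 for C1qc on the other strand. The stretch of C1qb runs from -250 to -1, whereas that of C1qc stops at -152, where the gene's bounds in GENCODE begin.
C1qb: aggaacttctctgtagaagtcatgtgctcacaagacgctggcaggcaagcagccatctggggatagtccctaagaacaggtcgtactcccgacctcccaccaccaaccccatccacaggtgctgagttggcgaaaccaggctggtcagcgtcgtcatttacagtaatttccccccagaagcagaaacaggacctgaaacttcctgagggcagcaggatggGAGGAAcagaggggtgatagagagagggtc
C1qc: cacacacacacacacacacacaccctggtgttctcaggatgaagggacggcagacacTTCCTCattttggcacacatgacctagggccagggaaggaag

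The 3 C1q genes varied together from one microglial nucleus to the next on 96-well plates. Across 68 nuclei, Pearson's r was 0.93 between C1qa and C1qb, 0.92 between C1qa and C1qc and 0.88 between C1qb and C1qc. Their r with the log2 read total of the nucleus was 0.11 to 0.24. Across 78 nuclei of 384-well plates the same pairs gave 0.33, -0.02 and 0.30, at the lower depth given above. Nuclei share their pool and plate, so these values describe the nuclei and carry no test. Over the 18 means of cell type and pool, the genes most like C1qa were C1qc, Casp8 and Ggta1 (r of at least 0.994 on the log2 scale). Those most like C1qb were Frrs1, Tifab and Hk2 (at least 0.990), and those most like C1qc were Fcrls, Gcnt1 and Ikzf1 (at least 0.997), all among 29120 genes compared.

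Outside microglia, C1q reads were rare. Any C1q read was seen in 59 of 1664 neurons (3.55%) and 13 of 397 oligodendrocytes (3.27%), and all 3 genes together in 3 neurons and no oligodendrocyte. Mean levels in neurons were 0.0108 to 0.0992 RPKM for C1qa, 0 to 0.388 RPKM for C1qb and 0 to 0.188 RPKM for C1qc. The WT pool of the 96-well plates stood apart, with C1q reads in 10.3% of its neurons and 10.96% of its oligodendrocytes, whereas the other 5 pools ranged from 0.364% to 4.91% in neurons and from 0 to 2.82% in oligodendrocytes. One het nucleus of the 384-well plates labelled neuron held 46 C1q reads, together with a microglial marker sum of 398.6 RPKM beside a neuronal marker sum of 144.4 RPKM. It alone gave 90.1% of the C1qb sum of its pool's neurons. None of the C1q genes reached the filter for a test in neurons or oligodendrocytes.

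To ask how the deletion bore on these genes, mean RPKM per pool was compared between the 2 het and the 2 WT pools without CamKII-CreER, with plate format as a block, by limma on log2(mean RPKM + 0.1). The test covered genes read in 10% or more of the nuclei of a genotype in both formats. In microglia, 5 of the 9 genes were tested and none was called at an adjusted p of 0.05, as was the case for 0 of all 13686 genes (0%). At an unadjusted p of 0.05, none of the 5 passed, against 1.93% of all 13686 genes. The log2 difference of het over WT was -0.36 for C1qa with a standard error of 0.46, -0.21 for C1qb with 0.46 and -0.09 for C1qc with 0.46. Adjusted p was 0.937, 0.965 and 0.984 in this limma fit, and 0.903 to 1 over the alternatives run for the 3 genes. By pool, C1qa was lower in het in both formats (-0.21 and -0.51 on the log2 scale), and so was C1qb (-0.34 and -0.07), whereas C1qc was lower in the 96-well and higher in the 384-well format (-0.27 and 0.08), and its sign turned to 0.05 with 3 pairs of pools. Both het pools lay below both WT pools for none of the 3 genes, and for 11.7% of all genes tested.

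The receptor genes C3ar1 and C5ar1 were also microglial but less evenly spread. C3ar1, at chr6:122847138-122856161 (ENSMUSG00000040552.8), had means of 36.8, 34.2, 8.54, 7.07, 13.5 and 24.4 RPKM in microglia and was seen in 80.6%, 71.9%, 31.2%, 42.1%, 35% and 43.5% of them. C5ar1, at chr7:16246743-16259540 (ENSMUSG00000049130.6), had means of 43.6, 31.5, 8.38, 3.59, 8.59 and 4.96 RPKM. It was seen in 69.4%, 56.2%, 12.5%, 5.26%, 15% and 26.1% of microglia. Both 96-well pools were thus above all 4 384-well pools for each receptor, and depth differed between the formats in the same way. A single read corresponded to about 5.51 RPKM of C3ar1 and 9.22 RPKM of C5ar1 in 384-well microglia.

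Neither receptor was called in microglia. For C3ar1 the log2 difference of het over WT was -0.19 with a standard error of 0.46 (adjusted p = 0.967 in limma, 0.943 to 1 over the alternatives), and with 3 pairs of pools its sign turned to 0.16. For C5ar1 it was -0.84 with 0.50 (adjusted p = 0.920, 0.889 to 1 over the alternatives), with -0.47 in the 96-well and -1.20 in the 384-well format. The latter rested on 2 WT nuclei and 1 het nucleus with reads, and in that contrast of 1 pool with 1 pool 43.9% of all genes differed by at least 1 on the log2 scale. The genes most like C5ar1 over the 18 means were Gm15372, Lilr4b and Lilrb4a (r of at least 0.976), and those most like C3ar1 were Znf41-ps, E230029C05Rik and Slc40a1 (at least 0.979). C5ar1 was at most 0.00929 RPKM in neurons, where 1 nucleus or none in each pool held reads.

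Unlike C5ar1, C3ar1 was read in a minority of neurons. Means in neurons were 0.361, 0.641, 0.207, 0.450, 0.226 and 0.498 RPKM, so the 3 pools labelled het were higher than the 3 others, and the shares of neurons with a read were 16.6%, 28.7%, 10.2%, 12.1%, 13.1% and 17.1%. In oligodendrocytes the share was 0 to 4.23%, at a lower depth on 384-well plates. Het over WT was 0.76 on the log2 scale with a standard error of 0.11, p = 0.00335 and adjusted p = 0.461 in limma, with 0.68 and 0.84 in the 2 formats. Adjusted p ranged from 0.407 to 1 over the alternatives, so C3ar1 was not called. With a pseudocount of 1 in place of 0.1 the difference was 0.27. With the het;iTg and iTg pools added as a further pair, the difference was 0.80. Of all neurons, 16.1% held C3ar1 reads. These were excitatory in 84.3%, against 78.7% of the others, and had similar Fezf2 (7.39 against 7.52 RPKM).

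Values of microglial genes in neurons stand beside this result. The microglial marker sum in neurons was 11.4, 11.7, 7.71, 7.96, 6.71 and 9.15 RPKM, and was higher in the het pool of each pair. Of its genes, Ctss, a lysosomal protease, measured 0.0538, 0.208, 0.0168, 0.127, 0.0188 and 0.0480 RPKM, also higher in each het pool, whereas Cx3cr1, a chemokine receptor, was higher in het in 1 of 3 pairs. Neurons with no read of C1qa, C1qb, C1qc, Ctss, Cx3cr1 or P2ry12 were also taken, a choice made after seeing the data. They were from 35.6% (96-well WT) to 76.7% (iTg) of the neurons of a pool. In them C3ar1 measured 0.303, 0.612, 0.202, 0.496, 0.221 and 0.631 RPKM, and the log2 difference of het over WT was 0.90. Csf1r, another of the microglial markers, was not part of this choice. What part microglial reads had in the C3ar1 result was not tested. Without the neurons that held a read of Pdgfra or Cspg4, likewise chosen after seeing the data, C3ar1 measured 0.311, 0.663, 0.203, 0.327, 0.224 and 0.509 RPKM, which gave het over WT of 0.89 on 96-well plates and 0.50 on 384-well plates.

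C7 was read in neurons alone. The gene spans chr15:4988762-5063740 (ENSMUSG00000079105.3) on the minus strand. It was above 0 in 18.9% of the 1664 neurons and in 0 microglia and 0 of 397 oligodendrocytes, which allows shares of up to 8.33% to 18.8% per pool for microglia and 4.11% to 6.52% for oligodendrocytes (3 counts of the nuclei, counting error only). Its values were whole reads in 100% of these neurons, but its length was itself inferred from read steps, which largely fixes this share in advance. No stretch of 75 bases of its transcript was shared with another gene. As C7 was the member read in neurons alone, the 250 bases before its RefSeq start, chr15:5063774-5064023 on the minus strand, are given for comparison with the C1q genes; the window holds no GAGGAA or TTCCTC.
C7: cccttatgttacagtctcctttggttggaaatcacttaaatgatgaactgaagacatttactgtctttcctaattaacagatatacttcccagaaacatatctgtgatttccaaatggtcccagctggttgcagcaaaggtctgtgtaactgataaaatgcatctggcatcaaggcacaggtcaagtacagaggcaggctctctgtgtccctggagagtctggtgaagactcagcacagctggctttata

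C7 neurons were of a particular kind. Of the neurons with C7, 96.5% were excitatory by the larger of Slc17a7 and Gad1, against 75.6% of neurons without C7. They had more Fezf2 (16.1 against 5.49 RPKM), Tle4 (17.4 against 10.4 RPKM) and Foxp2 (3.36 against 1.497 RPKM), which mark deep layers, and less Cux2 (5.20 against 26.4 RPKM) and Rorb (2.50 against 5.85 RPKM), which mark upper and middle layers. These 5 differences had the same direction in 6 of 6 pools. Tshz2, another gene of deep layers, was lower in neurons with C7 (2.70 against 3.61 RPKM) and higher in 1 of 6 pools. C7 was read in 37.04% of 602 excitatory neurons with Fezf2 (95% Clopper-Pearson interval 33.2% to 41.04%), in 8.64% of 602 excitatory neurons with Cux2 and no Fezf2 (6.52% to 11.2%) and in 2.70% of inhibitory neurons (1.24% to 5.07%). These intervals cover counting error only. Over the 18 means, Allc, Gm34648 and Gm7067 were the genes most like C7 (r of at least 0.998), and all 3 were at 0 in both glial types.

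**Figure D2:**
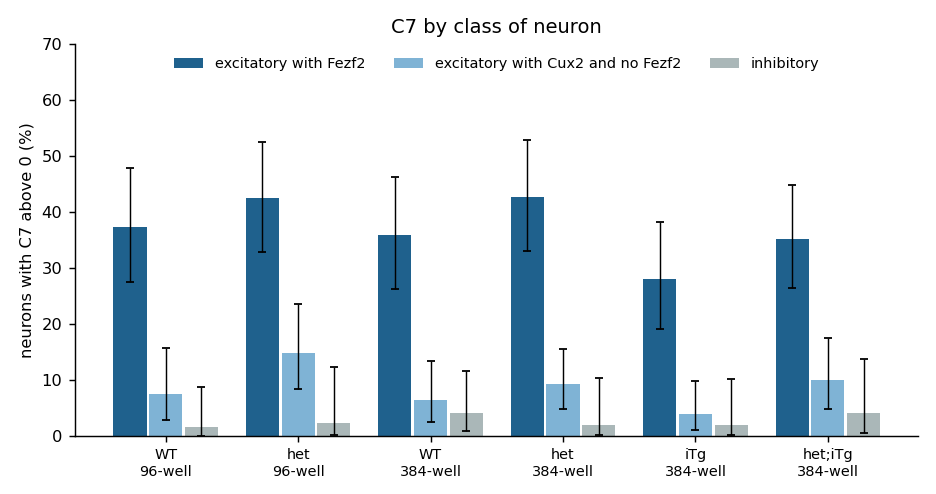
Share of neurons with C7 above 0, in percent, by pool and class of neuron. Error bars are 95% Clopper-Pearson intervals over nuclei and cover counting error only. In each of the 6 pools the bar of excitatory neurons with Fezf2, from 27.96% to 42.7%, stood above those of the other classes, which were at most 14.7%.

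The mean of C7 was higher in the het pool of each pair. Means in neurons were 1.33, 2.37, 1.042, 1.96, 0.939 and 1.17 RPKM, and the shares of neurons with a read were 18.2%, 25.3%, 16.1%, 21.9%, 12.7% and 18.9%. Both het pools without CamKII-CreER exceeded every other pool in mean level, whereas the het;iTg pool lay below the 96-well WT pool. In the pair with CamKII-CreER the log2 difference of C7 was 0.29, beside a median of 0.21 over all genes tested. Het exceeded WT by 0.82 on the log2 scale with a standard error of 0.10, p = 0.00211 and adjusted p = 0.461 in limma, with 0.79 and 0.85 in the 2 formats. Adjusted p was 0.403 to 1 over the alternatives, and C7 was therefore not called. With a pseudocount of 1 the difference was 0.53.

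**Figure D3:**
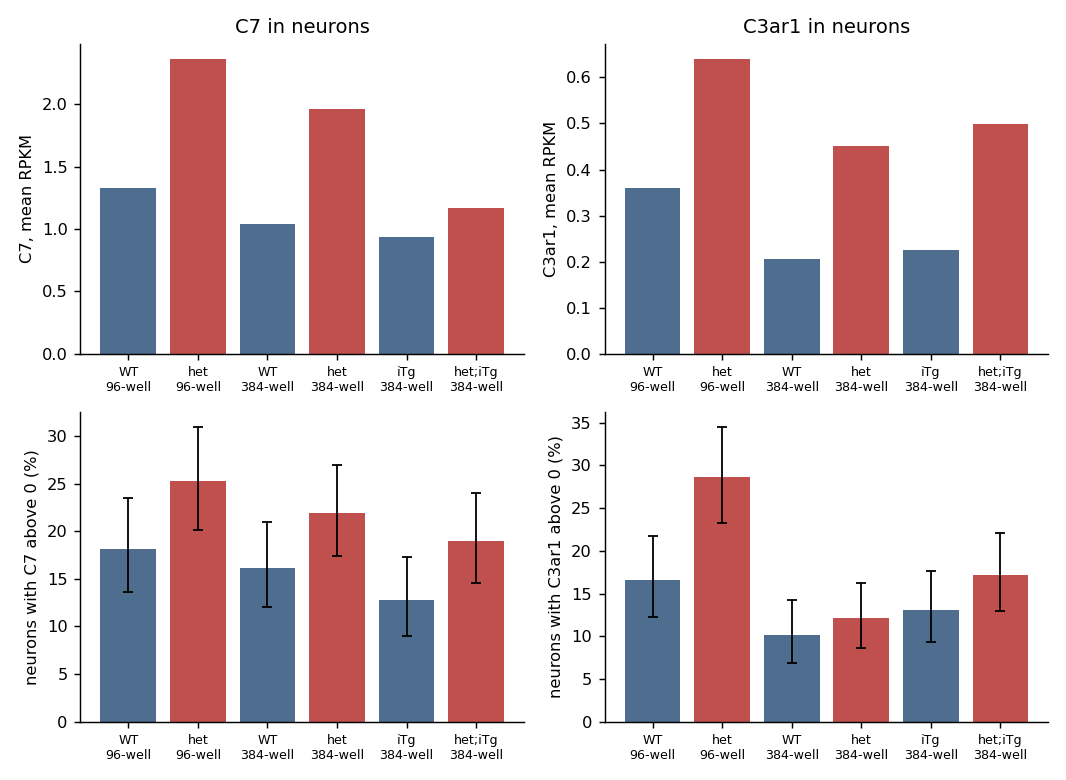
C7 (left) and C3ar1 (right) in neurons by pool, with mean RPKM in the upper row and the share of neurons above 0, in percent, in the lower row. Red bars are pools with the het allele and blue bars the others, and error bars on shares are 95% Clopper-Pearson intervals over nuclei. C7 reached 2.37 and 1.96 RPKM in the het pools and 1.17 RPKM in the het;iTg pool. In mean RPKM, C3ar1 was higher in each of the 3 red bars than in any blue bar. In share, its 384-well het bar (12.1%) lay below the blue bars of 96-well WT (16.6%) and iTg (13.1%).

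The number of members past an unadjusted threshold stands beside its background. Of the 4 members tested in neurons (C4b, C7, C3ar1 and Cd55), 2 had an unadjusted p under 0.05, as had 2428 of all 23853 genes tested (10.2%), and 0 of 23853 genes (0%) passed the adjusted threshold. Both het pools without CamKII-CreER were above both WT pools for C7 and C3ar1, which held for 3.77% of all genes, and all 3 pools with the het allele were above all 3 without it for C3ar1, which held for 1.77%. Neither gene reached a difference of 1 on the log2 scale in a single pair of pools, a size that 1.77% of genes passed in the 96-well pair, 1.06% in the 384-well pair and 10.2% in the pair with CamKII-CreER.

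The C7 result was also read within library codes and neuron classes. The titles of the 96-well samples carry several library codes, whose meaning the labels do not give, and 3 codes were shared by both genotypes. C7 was higher in het in 3 of 3 of these codes (2.26 against 1.73, 2.10 against 0.892 and 2.02 against 1.72 RPKM), and C3ar1 was also higher in 3 of 3 (0.784 against 0.174, 0.554 against 0.504 and 0.675 against 0.274 RPKM). In the code that each genotype did not share, C7 was 3.10 RPKM in het and 0.952 RPKM in WT, and C3ar1 0.563 and 0.497 RPKM. The codes split 1 pool of each genotype and are not samples, and how many of all genes did the same was not counted. In the 384-well format the WT pool had a code of its own, so code and genotype cannot be told apart between the WT and het pools. The het, iTg and het;iTg pools shared 1 code, within which het;iTg over iTg was 0.29 for C7 and 0.88 for C3ar1. The median over all genes tested in neurons was 0.21 in that contrast. The share of excitatory neurons was 75.5%, 83.02%, 73.7%, 82.7%, 80% and 82.1% over the 6 pools and thus higher in the het pool of each pair. Within excitatory neurons C7 measured 1.74, 2.82, 1.35, 2.37, 1.15 and 1.41 RPKM, a difference of het over WT of 0.72 on the log2 scale. Within excitatory neurons with Fezf2 it measured 2.87, 4.68, 2.41, 3.96, 1.81 and 2.43 RPKM, a difference of 0.69. Without neurons that held a read of Pdgfra or Cspg4 it measured 1.37, 2.37, 1.046, 1.93, 0.921 and 1.18 RPKM, a difference of 0.79. Without the highest nucleus of each pool the difference was 0.82. These subsets were chosen after seeing the data.

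In the 384-well format the pools with CamKII-CreER were compared with those without it, which shares the WT and het pools with the comparison above. CamKII-CreER itself and the transgene it induces cannot be told apart here. The difference is called the transgene difference in this sense only, in every cell type. With the genotype as a term, 0 of 23827 genes (0%) were called by limma in neurons, 0 of 13015 (0%) in microglia and 0 of 12406 (0%) in oligodendrocytes, and 1.42%, 3.86% and 3.99% of them had an unadjusted p under 0.05. For C7 in neurons the log2 difference was -0.42 with a standard error of 0.27 and adjusted p = 1, made of -0.14 between the pools without the het allele and -0.70 between those with it. Thus het over WT was 0.85 without CamKII-CreER and 0.29 with it, and the difference between these values has 1 pool in each cell and was not tested. Over all genes tested in neurons, the median of the pair without CamKII-CreER was -0.03 and that of the pair with it 0.21. Most of the 0.29 of C7 was thus no larger than the shift of the typical gene in that pair. For C3ar1 in neurons the transgene difference was 0.10 with 0.24, and for Cd55 and C4b it was 0.20 and 0.01. In microglia, the transgene differences were 0.76 for C1qa, 0.06 for C1qb, 0.41 for C1qc, 1.21 for C3ar1 and 0.25 for C5ar1, with standard errors of 0.58 to 0.65 and adjusted p of at least 0.994. C3ar1 was 1.77 higher in het;iTg than in het microglia, in a contrast of single pools where 38.2% of genes differed by at least 1.

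C4b was the oligodendrocyte gene of the 9, but only in some nuclei. It encodes a form of C4, the component cleaved after C1 is activated, and lies at chr17:34728380-34743882 (ENSMUSG00000073418.4) near its copy C4a. Means in oligodendrocytes were 36.8, 11.4, 16.9, 25.2, 14.0 and 26.5 RPKM, from reads in 27.4%, 33.8%, 24.6%, 21.7%, 14.1% and 35.8% of the nuclei. Of the 397 oligodendrocytes, 26.4% were above 0 and 87 nuclei above 10 RPKM, with a median of 28 reads in the nuclei above 0, so most nuclei were at 0 and the rest were high. Over the 18 means, the genes most like C4b were Cox6b2, Gm5687 and Gm19653, with r of at least 0.896.

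**Figure D4:**
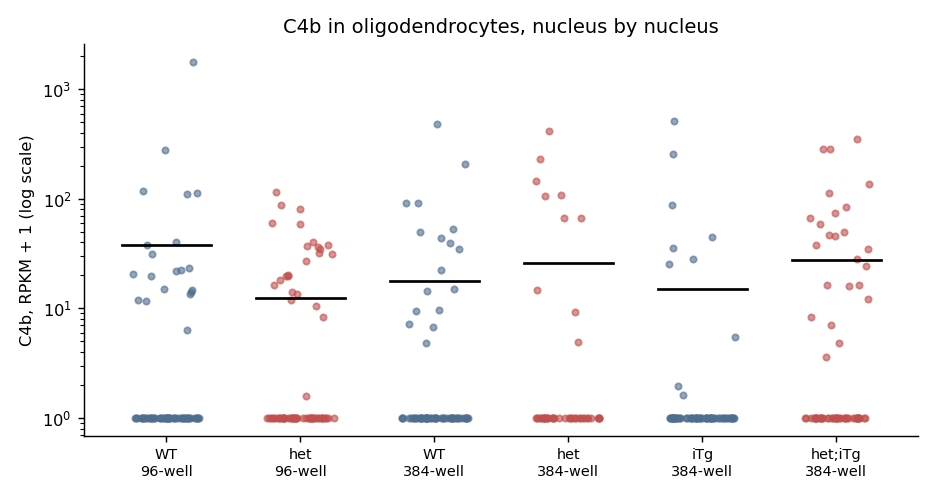
C4b in each oligodendrocyte nucleus, as RPKM plus 1 on a log axis, by pool. Points are nuclei with sideways scatter for display, and black lines are pool means. Most nuclei lay at 0 in every pool, the others mostly above 10 RPKM, and 1 WT nucleus of the 96-well plates reached 1780 RPKM.

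A single nucleus of the 96-well WT pool held 1780 RPKM and 66.3% of the C4b of its pool. In the 5 other pools the highest nucleus gave 14.0% to 51.8%. The log2 difference of het over WT in oligodendrocytes was -0.55 with a standard error of 0.64 (adjusted p = 0.920 in limma, 0.866 to 1 over the alternatives), and 0 of 12832 genes (0%) were called, with 606 at an unadjusted p under 0.05. It was -1.68 in the 96-well format, where 5.95% of genes differed by at least 1, and 0.57 in the 384-well format. Without the highest nucleus of each pool, a choice made after seeing the data, the difference turned to 0.18.

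Oligodendrocytes with high C4b resembled the others in their markers. On 96-well plates, 40 nuclei above 10 RPKM had Mbp of 858, Mog of 322.7 and Mag of 582 RPKM, against 814, 312.9 and 551 RPKM in 100 nuclei at 0. On 384-well plates, Mbp was 883 against 726 RPKM and Mog 303.6 against 286.97 RPKM. Of the astrocyte markers, Aqp4 was 0.862 against 0.532 RPKM on 96-well plates and 0 against 0.0204 RPKM on 384-well plates. Slc1a3 was higher in level but similar in both kinds of nuclei (10.5 against 12.2 and 8.90 against 9.25 RPKM), and Aldh1l1 was lower in those with high C4b (1.55 against 2.75 and 0.931 against 3.13 RPKM). C4a was higher in the nuclei with high C4b (10.97 against 0 RPKM on 96-well and 12.6 against 0.246 RPKM on 384-well plates), but 23.5% of the 75-base stretches of the C4b transcript are shared with C4a, so reads of the copies cannot be fully told apart.

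In nuclei labelled microglia, C4b was concentrated in a few that carried markers of perivascular macrophages, border cells of brain vessels. F13a1 was above 0 in 4 nuclei (1 WT and 2 het of the 96-well plates and 1 het of the 384-well plates). These nuclei had Mrc1 of 433 to 1076 RPKM, against at most 61.1 RPKM in the rest, and also carried Cd163 and Lyve1. Tmem119, a gene of resident microglia, was at 0 in all 4 and above 0 in 97.9% of the rest. P2ry12, another of the microglial markers, was above 0 in 3 of the 4, at up to 63.4 RPKM, against a median of 179.9 RPKM in the rest. The sum of the 6 microglial markers was 576 to 1148 RPKM in the 4 nuclei. Their C4b levels of 45.6, 63.9, 318.9 and 1458 RPKM were the 4 highest among microglia, whereas 7 of the rest were above 0, with a highest value of 24.2 RPKM. The macrophage-like nuclei also held all 3 C1q genes, at 96.6 to 402 RPKM for C1qa, and C3ar1 at 19.3 to 180.6 RPKM.

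**Figure D5:**
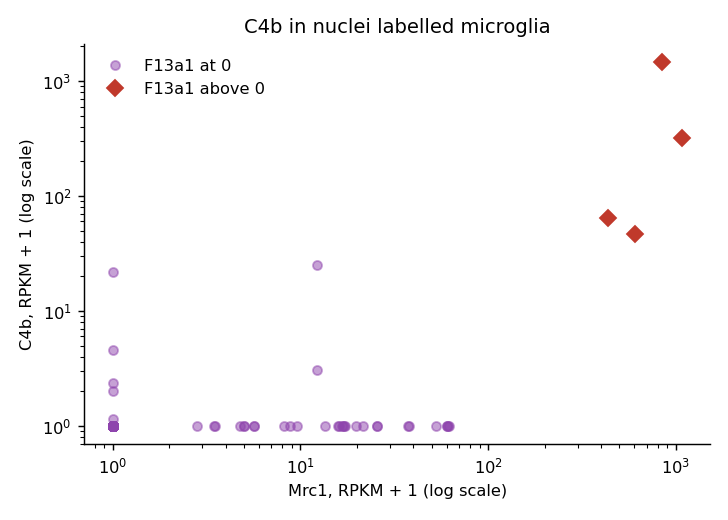
C4b against Mrc1 in the nuclei labelled microglia, both as RPKM plus 1 on log axes. Red diamonds are the 4 nuclei with F13a1 above 0 and purple circles the rest, with many circles overlying at 0. The diamonds sit at 433 RPKM of Mrc1 or more and hold the 4 highest C4b values.

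Pool means of C4b in microglia followed these nuclei, whose split from the rest by F13a1 was a choice made after seeing the data. The means were 1.94, 56.3, 0, 3.36, 0 and 0.155 RPKM in all nuclei labelled microglia and 0.693, 0.853, 0, 0, 0 and 0.155 RPKM without the 4, so the high value of the 96-well het pool rested on 2 nuclei. C1q levels hardly moved, with C1qa at 235.7, 192.97, 138.7, 97.4, 207.6 and 187.4 RPKM without them. The log2 difference of het over WT for C3ar1 in microglia was then -0.40, against -0.19 with them, and no gene was called. C4a, the copy of C4b, was 3.61 higher in het microglia on the log2 scale (p = 0.00548, adjusted p = 0.920 in limma) and 1.74 higher without the 4 nuclei (p = 0.285).

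C4b was also read at low level in many neurons, where its values carry an alignment limit. Means were 0.370, 0.341, 0.580, 0.601, 0.678 and 0.523 RPKM, with reads in 40.8% to 47.3% of neurons and a median of 2 reads in those above 0. Only 42.9% of the values above 0 were whole reads, so the others held fractions of a read, and how such reads were assigned is not given in the sources used here. Neurons with C4b reads had Gm10800 of 66.9 against 0.540 RPKM, Gm10801 of 10.6 against 0.0971 RPKM and Gm21738 of 15.96 against 0.180 RPKM in neurons without, and C4a of 6.56 against 0.524 RPKM. These are predicted genes, and what part they have in the C4b values was not tested. The log2 difference of het over WT was -0.02 with a standard error of 0.11 (adjusted p = 0.960 in limma, 0.822 to 1 over the alternatives), and its sign was not stable across them.

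Cd55 was likewise a gene of neurons, with a different pattern from C7. It lies at chr1:130439027-130462744 (ENSMUSG00000026399.12) and is overlapped on the other strand by Gm16083. Means in neurons were 0.952, 0.971, 0.347, 0.316, 0.371 and 0.418 RPKM, higher in both 96-well pools than in the 384-well pools, with reads in 27.7%, 24.5%, 19.3%, 15.03%, 21.1% and 21.8% of neurons. It was read in 4 microglia and in 0 of 397 oligodendrocytes. The log2 difference of het over WT was -0.04 with 0.11 (adjusted p = 0.930 in limma, 0.833 to 1 over the alternatives), and it was 0.03 in the 96-well and -0.10 in the 384-well format, so its direction was not stable.

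Neurons with Cd55 had more Sst, the peptide of a class of inhibitory neuron, at 159.2 against 40.4 RPKM, and this direction held in 6 of 6 pools. Most neurons with Cd55 were nonetheless excitatory (77.5%, against 80.1% of neurons without). Cd55 was read in 20.8% of excitatory and in 23.4% of inhibitory neurons. Among inhibitory neurons, Cd55 was read in 35.2% of those with Sst (27.4% to 43.7%) and in 14.7% of those without Sst (9.97% to 20.5%). Reads of Cd55 were whole in 61.7% of the neurons above 0. Of 2459 stretches of 75 bases of its transcript, 10.6% were shared with other genes, 88.8% of the shared ones with its copy Cd55b, and Gm16083 was 4.55 RPKM in neurons with Cd55 against 0.996 RPKM in those without. Reads of Cd55 and Gm16083 cannot be told apart without strand.

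C3, the central component that all pathways cleave, was hardly detected. It lies at chr17:57203970-57228136 (ENSMUSG00000024164.15). C3 was read in 0 microglia, which allows shares of up to 8.33% to 18.8% per pool. In neurons, 36 of 1664 held a read, in 1.58%, 5.28%, 1.75%, 2.94%, 0.364% and 1.07% of the nuclei, with means of 0.0201, 0.105, 0.0305, 0.0546, 0.00717 and 0.0220 RPKM. The het pool had the higher mean and share of each pair, which was not tested. In the pair with CamKII-CreER, het;iTg held 3 reads in 3 nuclei and iTg 5 reads in 1 nucleus. A single het;iTg nucleus gave 72.3% of the sum of its pool. The only other nuclei with C3 were 3 oligodendrocytes, at 78.8 RPKM in the het pool and at 43.7 and 25.9 RPKM in the het;iTg pool of the 384-well plates. C3 did not pass the filter for a test in any cell type. The genes most like it over the 18 means, Gm47133, Actbl2 and Gm37136 (r of at least 0.941), were at most 0.113 RPKM in neurons, at 0 in microglia and at most 2.59 RPKM in oligodendrocytes.

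The wider cascade was followed in 41 further genes. In neurons 23 of them were tested and 0 were called. At an unadjusted p under 0.05, 5 were higher and 1 was lower in het, or 6 of 23, beside 10.2% of all genes tested. The proteases C1ra, C1rb, C1s1 and C1s2 accounted for 4 of the 5, with log2 differences of 1.06, 1.01, 1.70 and 0.40 and adjusted p of 0.461, 0.461, 0.461 and 0.469 in limma. The other 2 were the membrane protein gene Csmd2 (0.33, adjusted p = 0.479) and Cd59b, which encodes an inhibitor of the membrane attack complex (-0.45, adjusted p = 0.476). The median log2 difference of the 23 genes was -0.01, against -0.03 for all genes tested. In microglia 15 were tested and 0 called, with 1 higher (C4a) and 1 lower at an unadjusted p under 0.05, beside 1.93% of all genes. The lower was Csmd3 (-1.61). In oligodendrocytes 14 were tested and 0 called, with Masp1 (1.51) and Cr2 (1.32) higher at that threshold, beside 4.72% of all genes.

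Levels of the wider genes were also described by cell type. Overlap with other genes and shared stretches were checked for the members alone, and counting ignored strand. These levels are thus reads over each gene, and their origin was not tested. Itgam and Itgb2, the subunits of complement receptor 3, were 70.3 to 134.9 and 77.5 to 112.1 RPKM in microglia and at most 0.173 RPKM in neurons. Cfp, which encodes properdin, was 32.8 to 55.1 RPKM in neurons and 11.9 to 29.8 RPKM in oligodendrocytes, and at most 15.4 RPKM in microglia. The protease gene Masp2 was 3.60 to 12.2 RPKM in neurons, 0.379 to 11.5 RPKM in microglia and 0.852 to 8.66 RPKM in oligodendrocytes, so its ranges overlapped. Csmd1 and Csmd2, which encode large membrane proteins with complement control domains, were 56.9 to 66.9 and 31.1 to 62.7 RPKM in neurons. Of the terminal parts, C8g was 2.55 to 4.37 RPKM in neurons, 0 to 8.45 RPKM in microglia and 0.987 to 2.47 RPKM in oligodendrocytes. C8b was 0.0948 to 0.398 RPKM in neurons, and C9 was at 0 in all 18 means. C7 and C8b were thus both read in neurons and at 0 in both glial types, where Hc, C6 and C8a were also at 0. C8b was read in only 4% to 8.50% of neurons, a share that the microglia of a pool are too few to exclude.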

How the data were processed

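Single nuclei of mouse cortex were isolated on an iodixanol gradient and sorted into plates, and RNA was sequenced by RamDA-seq, a full-length method for total RNA. Per the labels, the authors mapped reads to mm10 with HISAT2 2.0.4 and counted them with featureCounts of Subread 1.5.0, and they deposited RPKM values per gene and nucleus, in a table for each plate format. The methods name default counting settings, which ignore strand and give whole reads. Cell type labels were the submitters'. Each pool held 362 to 371 nuclei, of which 146 in all were labelled microglia. Counts were not used here. Of values above 0, 30.8% (96-well) and 26.5% (384-well) were not whole reads within a tolerance of 0.02 reads, so a count test was not used. Read totals were recovered from the RPKM steps. Gene IDs were matched to GENCODE M21 symbols (52403 of 52636). C7 had another version there, and its length was inferred from read steps as 2709 bases.

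Mean RPKM per pool and cell type was compared with limma 3.58.1 (R 4.3.3) on log2(mean RPKM + 0.1), which understates differences of low genes, with Benjamini-Hochberg adjustment over all genes tested and 1 residual degree of freedom. For the transgene, genes read in 10% or more of the nuclei in 2 or more pools were tested. Contrasts of 1 pool with 1 pool are values, with a log2 difference of 1 as the threshold. Shares carry exact Clopper-Pearson 95% intervals, computed with SciPy 1.17.1, over 333 inhibitory neurons (142 with Sst, 191 without) for those of C7 and Cd55. The members and gene lists were chosen with earlier results of these data known. Named genes are the 9 members, further complement genes with an unadjusted p under 0.05 in neurons (added after their values were seen), and the 2 highest per role. For likeness, the 3 genes with the highest r were taken for each member of at least 1 RPKM in a mean. The fit was tested on simulated data. Promoter windows and their build are those of RefSeq. Alternatives covered the pseudocount, filter, plate term, limma trend, depth weighting, a further pair of pools, each pool left out, and, for shares, thinning to 298762 (96-well) or 48585 (384-well) reads and a minimum of 2 reads.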

Additional observations from a re-analysis of the deposited data

Results flagged for a closer look

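C4b in oligodendrocytes had opposite differences of het over WT in the plate formats, -1.68 on the log2 scale in the 96-well and 0.57 in the 384-well format, each of 1 pool against 1 pool. The difference between the formats was not tested. In the 96-well WT pool 1 nucleus gave 66.3% of the C4b sum, and depth was lower on 384-well plates; their part in the result was not tested.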

How the results depend on the processing

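The counts of called genes stayed at 0 in 28 of 29 alternative fits, and the exception was limma with a trend in oligodendrocytes, which called 2 genes, neither of them a member; the cause was not tested. With the pools left out in turn no residual degree of freedom remained, so those are values without a test. No paired analysis was possible because the replicate numbers only name nuclei and tie none to a mouse; pools were matched by plate format alone.

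Het over WT kept its direction in 78 of 84 alternative values of members. The filter, the plate format term and the limma trend cannot alter a gene's difference in this balanced design. Values from those settings therefore repeat the main value. The count also includes, for C7 and C3ar1, subsets of neurons chosen after seeing the data. The sign turned for C4b and Cd55 in neurons with depth-weighted means (0.0730 and 0.0790), for Cd55 in neurons (0.0198), C1qc in microglia (0.0464) and C3ar1 in microglia (0.16) with 3 pairs of pools, and for C4b in oligodendrocytes without the highest nucleus of each pool (0.18). The cause was not tested. With each pool left out in turn, het over WT ranged from -0.0926 to 0.0430 for C4b and from -0.104 to 0.0258 for Cd55 in neurons, from -0.267 to 0.0830 for C1qc in microglia and from -1.68 to 0.57 for C4b in oligodendrocytes. It ranged from 0.79 to 0.85 for C7 and from 0.68 to 0.84 for C3ar1 in neurons. Over the other alternatives on all neurons, C7 ranged from 0.53 to 0.87 and C3ar1 from 0.27 to 0.95, the lowest with a pseudocount of 1 and the highest with 0.01. The transgene difference ranged from -0.17 to 0.19 for C4b in neurons, from -0.14 to 0.26 for C1qb in microglia and from -0.270 to 0.0758 for C4b in oligodendrocytes.

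After thinning, C7 was read in 15.3%, 23.4%, 7.48%, 12.3%, 6.26% and 9.31% of neurons and C3ar1 in 15.8%, 29.9%, 3.24%, 5.80%, 3.75% and 7.05%, again higher in the het pool of each pair. The depth of 384-well glia, where 1 read can exceed 20 RPKM, limits what a low gene can show there.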
